A study of Mus musculus with 9 samples.

Results

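The miR-10a and miR-10b precursors each give a 5p and a 3p mature miRNA, and these 4 arms were taken by name from the 358 miRNAs quantified in mouse epididymosomes. Small RNA was sequenced from epididymosomes, the vesicles shed into the epididymal lumen, of the caput (head), corpus (body) and cauda (tail) epididymis of male Swiss mice aged 8 weeks. There were 3 libraries per segment, each made from RNA pooled over several untreated animals, so differences between single mice cannot be seen. The vesicles had been purified from luminal fluid on a density gradient after the vasculature was flushed. All 4 arms were detected in all 9 libraries. Values are CPM, which give the reads of each miRNA relative to all miRNA reads in its library.

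miR-10a and miR-10b are old paralogues that lie within the Hox clusters, the gene arrays that pattern the body axis, and both can repress Hox transcripts. The mature 5p arm is the strand that is normally loaded into Argonaute, where bases 2 to 8, the seed, choose the targets; the 3p arm is the partner strand of the hairpin, most of which is degraded. Epididymosomes carry miRNAs from the epididymal epithelium to the sperm that pass through the duct, from the caput towards the cauda.

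The mature sequences are shown first because the 5p pair is hard to tell apart. They are RefSeq sequences placed on GRCm38.p6, 5′ to 3′, with the seed in capitals.
miR-10a-5p: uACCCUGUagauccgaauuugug
miR-10b-5p: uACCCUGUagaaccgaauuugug
miR-10a-3p: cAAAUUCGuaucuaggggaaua
miR-10b-3p: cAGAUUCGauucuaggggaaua

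The 5p arms share the seed ACCCUGU and are identical at 22 of 23 bases. The 1 difference, counted from the 5′ end with miR-10a-5p first, is U12A, outside the seed. The 3p arms differ at 3 of 22 bases, A3G, U9A and A10U, the first of which lies in the seed, so that their seeds are not the same. Of the 358 miRNAs, 299 were matched to a mature RefSeq sequence, and none of those had a seed in common with a miR-10 arm other than the 5p pair itself. The 4-base run CCCU, searched on the mature strand, was in 24 of the 299 sequences (8.03%) and in both 5p arms, at bases 3 to 6, whereas GGAG was in 23 (7.69%) and in none of the 4 arms.

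Both hairpins are on the plus strand. Mir10a is at chr11:96317165-96317274, between Hoxb5 and Hoxb4 in the HoxB cluster, and ends 992 bases before the start of Hoxb4 in the GENCODE annotation of GRCm38. Within it the 5p arm is at chr11:96317186-96317208 and the 3p arm at chr11:96317227-96317248. Mir10b is at chr2:74726070-74726137 in the HoxD cluster, in an intron of 2 of the 3 Hoxd4 transcripts and 1 of the 6 Hoxd3 transcripts, 1141 bases before the first coding base of Hoxd4. Its 5p arm is at chr2:74726074-74726096 and its 3p arm at chr2:74726114-74726135. The hairpins are printed to show how the arms pair across the loop, with both arms in capitals and 18 bases between them in Mir10a and 17 in Mir10b.
Mir10a: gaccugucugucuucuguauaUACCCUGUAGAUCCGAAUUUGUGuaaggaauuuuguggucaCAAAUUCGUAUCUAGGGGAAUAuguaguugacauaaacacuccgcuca
Mir10b: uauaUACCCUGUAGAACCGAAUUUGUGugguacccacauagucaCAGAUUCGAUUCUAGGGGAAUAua

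The depth was uneven between segments, with 8274421 to 11306605 reads on miRNAs in the caput libraries, 1548581 to 6190324 in those of the corpus and 2001086 to 5896748 in those of the cauda, so that 10 CPM stood for 15.5 to 113 reads. The library caput 2 stood apart, since TMM, a trimmed mean of ratios to a reference library, gave it a factor of 0.478 against 0.753 to 1.29 in the other 8. Values without it are given beside the results that it moved most. Amplified copies of a molecule cannot be recognised in these values, so the intervals of single libraries cover counting error only.

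miR-10b-5p was the most abundant miRNA in each caput and corpus library and second in each cauda library, where miR-143-3p, a smooth muscle miRNA, was first. Its level was 383540, 433974 and 296815 CPM in the 3 caput libraries, a mean of 371443 ± 69375 (SD, n = 3). In the corpus it was 323431, 315643 and 325114 CPM (321396 ± 5053), and in the cauda 181849, 183794 and 199089 CPM (188244 ± 9442). The cauda libraries were thus below all others, while the corpus values lay inside the range of the caput, whose libraries were the most scattered of the 3 segments.

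miR-10a-5p, the paralogue from HoxB, was second in the caput and corpus libraries and the third in the cauda. It was measured at 248450, 279022 and 207739 CPM in the caput (245070 ± 35761). In the corpus it was at 208593, 197760 and 177843 CPM (194732 ± 15597). In the cauda it was at 149691, 150121 and 145773 CPM (148528 ± 2396), again below every other library. The caput and corpus overlapped, by a margin of 1 library on each side. In such pools, fewer vesicles that carry a miRNA cannot be told apart from less of it per vesicle.

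The 3p arms were lower by 3 to 4 orders of magnitude. miR-10a-3p was at 71.4, 43.4 and 106 CPM in the caput libraries (73.7 ± 31.5), 53.5, 72.1 and 62.0 CPM in those of the corpus (62.5 ± 9.31) and 77.0, 59.5 and 73.3 CPM in those of the cauda (69.9 ± 9.20). miR-10b-3p was at 46.6, 64.7 and 69.9 CPM in the caput libraries (60.4 ± 12.2), 43.9, 72.8 and 52.3 CPM in those of the corpus (56.4 ± 14.9) and 55.5, 43.0 and 33.4 CPM in those of the cauda (44.0 ± 11.1). For both, the ranges of all 3 segments overlapped. In the shallowest library, corpus 3, the value of miR-10b-3p rested on 81 reads, with an exact Poisson 95% interval of 41.5 to 65.0 CPM.

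**Figure D1:**
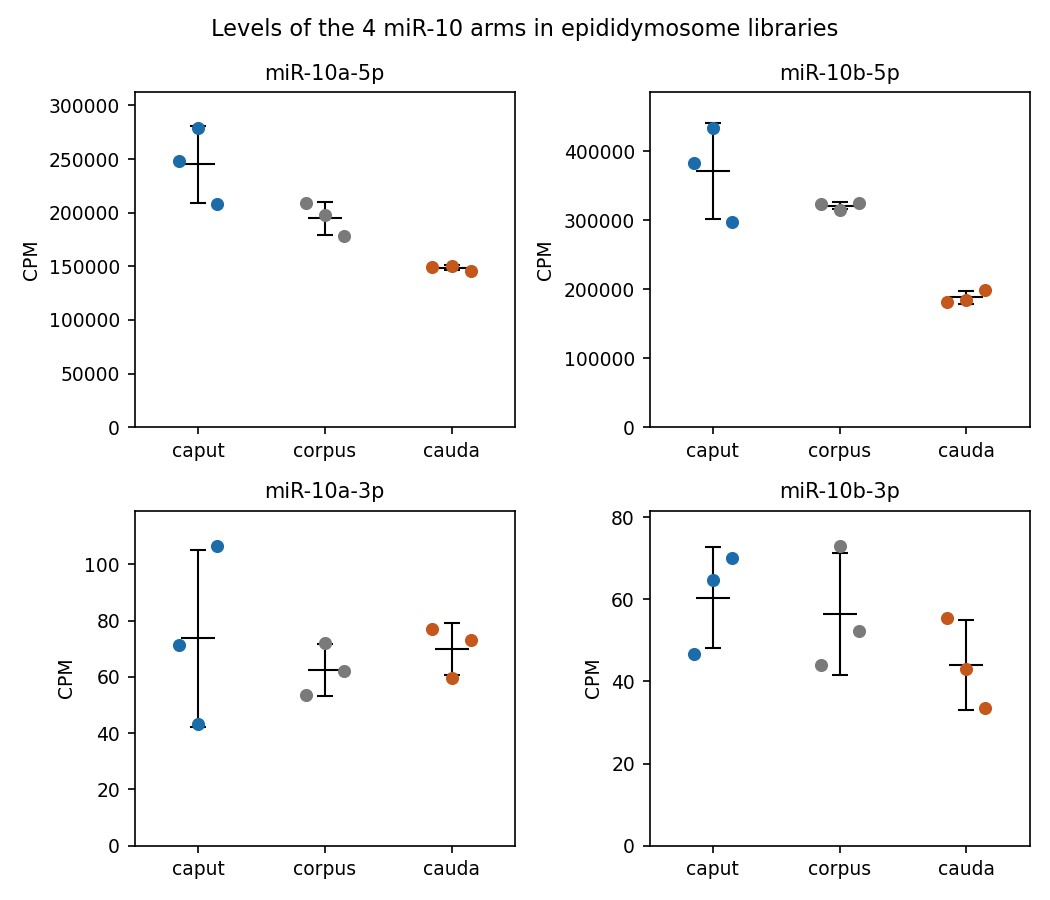
CPM (linear axis, from 0) of the 4 miR-10 arms in the caput, corpus and cauda, 1 point per library, with the mean (horizontal mark) and SD (bar, n = 3). Both 5p arms were lowest in the 3 cauda libraries (miR-10b-5p 181849 to 199089 CPM, miR-10a-5p 145773 to 150121 CPM), while the 3p arms overlapped between segments.

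Between the caput and the corpus, the first step of the passage, none of the 4 arms passed the test with the library size scaling. The test was limma on log2(CPM + 1) across the 321 miRNAs whose mean reached 10 CPM in either segment, with Benjamini-Hochberg adjustment. The log2 fold change was -0.32 for miR-10a-5p (SE 0.17, adjusted p = 0.164) and -0.19 for miR-10b-5p (SE 0.16, adjusted p = 0.412). It was -0.15 for miR-10a-3p (95% interval -1.05 to 0.75) and -0.11 for miR-10b-3p (-0.99 to 0.77). In limma 0 of 4 arms had an adjusted p under 0.05 and a fold of at least 2, against 22.4% of all tested miRNAs. By an adjusted p under 0.05 alone it was 0, against 23.1%. The smallest unadjusted p of the 4 arms in limma was 0.0666, that of miR-10a-5p. The 2 segments did not overlap for 0 of the 4 arms and for 34.9% of all tested miRNAs. Without caput 2 the changes of the 5p arms were -0.23 for miR-10a-5p and -0.07 for miR-10b-5p, and without caput 3 both passed, at -0.44 (limma, adjusted p = 0.0161) and -0.34 (limma, adjusted p = 0.0304). Other scalings gave larger changes, with miR-10a-5p at -0.70 with the total without the 5p pair (limma, adjusted p = 0.0482) and miR-10a-3p at -0.72 with TMM (limma, adjusted p = 0.0449).

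Between the corpus and the cauda, miR-10b-5p fell 1.71-fold, a log2 fold change of -0.77 (SE 0.16, limma with Benjamini-Hochberg adjusted p = 0.00338), and was lower in 3 of 3 cauda libraries than in any corpus library. miR-10a-5p also had no overlap, but its change of -0.39 (SE 0.17) had an adjusted p of 0.110 in limma. The 3p arms had log2 fold changes of 0.16 (miR-10a-3p, 95% interval -0.74 to 1.06) and -0.35 (miR-10b-3p, -1.23 to 0.53). Thus 0 of 4 arms reached both the adjusted p and the fold of at least 2 (19.0% of the 342 miRNAs tested), 1 of 4 had an adjusted p under 0.05 (20.2%), and 2 of 4 did not overlap (46.2%). The unadjusted p in limma was 0.0316 for miR-10a-5p and 2.0e-04 for miR-10b-5p. No share of all tested miRNAs was computed for unadjusted p. With TMM the change of miR-10b-5p was -0.87, but its adjusted p in limma was above the threshold, at 0.0755. The adjusted p of miR-10a-5p in limma came under 0.05 in 4 of 21 alternatives: with the total without the 5p pair (-0.84, adjusted p = 0.0210), in a fit of the 6 libraries alone (0.00756), without caput 2 (0.0192) and without caput 3 (0.0219).

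From the caput to the cauda both 5p arms fell. The log2 fold change of miR-10b-5p was -0.96 (SE 0.16, 95% interval -1.31 to -0.62), a 1.95-fold drop with an adjusted p of 1.9e-04 in limma. That of miR-10a-5p was -0.71 (SE 0.17, -1.06 to -0.36), a 1.64-fold drop with an adjusted p of 0.00223 in limma. Without caput 2 they were -0.84 (limma, adjusted p = 4.2e-04) and -0.61 (limma, adjusted p = 0.00219). For the 3p arms the changes were 0.01 in miR-10a-3p (SE 0.43, -0.89 to 0.91) and -0.46 in miR-10b-3p (SE 0.42, -1.34 to 0.42), neither past the test, and miR-10a-3p was at -0.32 without caput 2 and 0.31 without caput 3.

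Here 2 of 4 arms had an adjusted p under 0.05, against 51.3% of the 349 miRNAs tested, and 2 of 4 did not overlap, against 54.2%. None of the 4 reached a fold of at least 2 as well, against 49.0%. The counts were therefore no higher than the background, but most calls by adjusted p were in the opposite direction: 141 miRNAs rose and 38 fell. This split depended on the scaling: 96 rose and 83 fell with TMM, 79 rose and 95 fell with the total without the miR-10 5p pair, and 157 rose and 51 fell when miR-143-3p was left out of that total too. The share with a fold of at least 2 as well is given for the library size alone. The median log2 fold change over all tested miRNAs was 0.81, and miR-10b-5p stood at percentile 12.3 of that distribution, miR-10a-5p at 14.9, miR-10b-3p at 19.5 and miR-10a-3p at 28.9. All 3 comparisons draw on the same libraries and are not independent.

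These values depend on what the libraries are scaled to, since the 5p pair is itself a large part of every total. Together miR-10a-5p and miR-10b-5p took 63.2%, 71.3% and 50.5% of the reads on miRNAs in the caput libraries, 53.2%, 51.3% and 50.3% in those of the corpus, and 33.2%, 33.4% and 34.5% in those of the cauda. The means were 61.7 ± 10.5, 51.6 ± 1.47 and 33.7 ± 0.711% (SD, n = 3). The mean share thus dropped by 27.97 percentage points from the caput to the cauda. Without caput 2, which had the highest share, it dropped by 23.15 percentage points. A read exchanged between the near-identical 5p sequences does not alter this sum. miR-143-3p moved the other way, from 62956 ± 21760 CPM in the caput libraries to 99958 ± 18019 in those of the corpus and 315271 ± 33362 in those of the cauda.

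**Figure D2:**
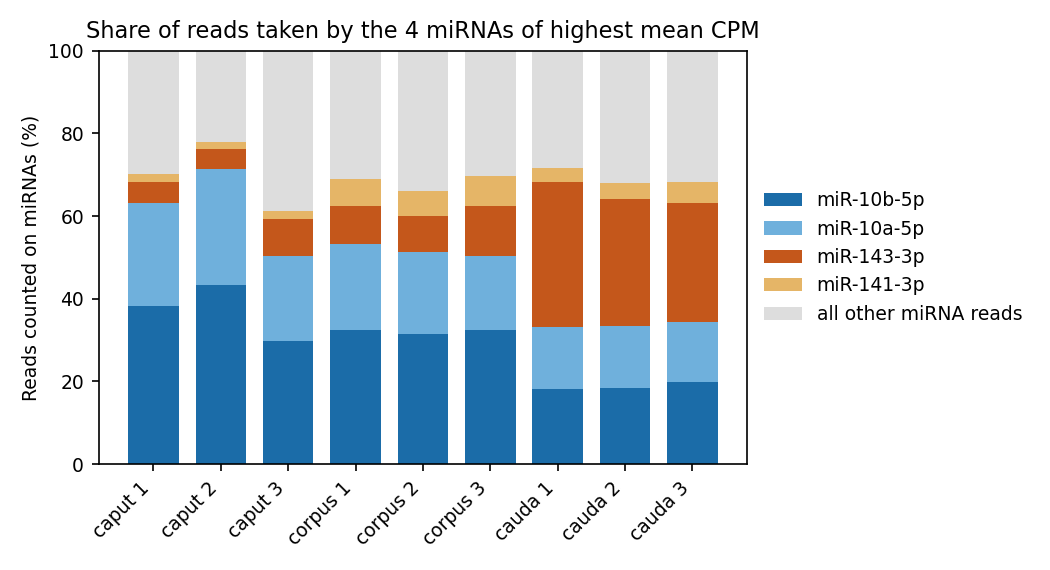
Share of the reads on miRNAs (%, stacked bars from 0 to 100, 1 bar per library) taken by the 4 miRNAs with the highest mean CPM over the 9 libraries, with all other miRNA reads in grey. The blue segments, miR-10b-5p and miR-10a-5p, made up 50.3 to 71.3% of the caput and corpus libraries and 33.2 to 34.5% of the cauda libraries, where miR-143-3p took 28.7 to 35.2%.

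Set against the other miRNA reads of the same library, the pair had 1.72, 2.48 and 1.02 reads per other read in the caput libraries, 1.14, 1.06 and 1.01 in those of the corpus and 0.496, 0.501 and 0.526 in those of the cauda. On this scale caput 3 was level with the corpus, and the cauda was still below every other library. When the total without the 5p pair replaced the library size, the caput to cauda change was -1.79 for miR-10b-5p (limma, adjusted p = 1.7e-04) and -1.54 for miR-10a-5p (limma, adjusted p = 3.4e-04). With TMM it was -1.64 for miR-10b-5p (limma, adjusted p = 0.00223) and -1.39 for miR-10a-5p (limma, adjusted p = 0.00454). With miR-143-3p removed from the total as well, an alternative chosen after seeing the data, it was -1.11 for miR-10b-5p (limma, adjusted p = 0.00335) and -0.86 for miR-10a-5p (limma, adjusted p = 0.00953). Both 5p arms thus fell from caput to cauda under each of these scalings, by amounts that depended on the scaling.

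The 3p arms behaved otherwise. Whether their adjusted p in limma was under 0.05 depended on the scaling, whereas that of both 5p arms was under 0.05 with each of these scalings. With TMM, miR-10b-3p changed by -1.12 (limma, adjusted p = 0.0281) and miR-10a-3p by -0.66 (limma, adjusted p = 0.0476), and with the total without the 5p pair by -1.28 (limma, adjusted p = 0.00871) and -0.81 (limma, adjusted p = 0.0357). With miR-143-3p left out too, neither passed (limma, adjusted p = 0.154 for miR-10b-3p and 0.684 for miR-10a-3p). The caput to cauda median over all tested miRNAs was 0.13 with TMM, -0.01 with the total without the 5p pair and 0.66 with miR-143-3p left out too. Under all 4 scalings the caput to cauda changes of the 4 arms lay below the median of all tested miRNAs.

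**Figure D3:**
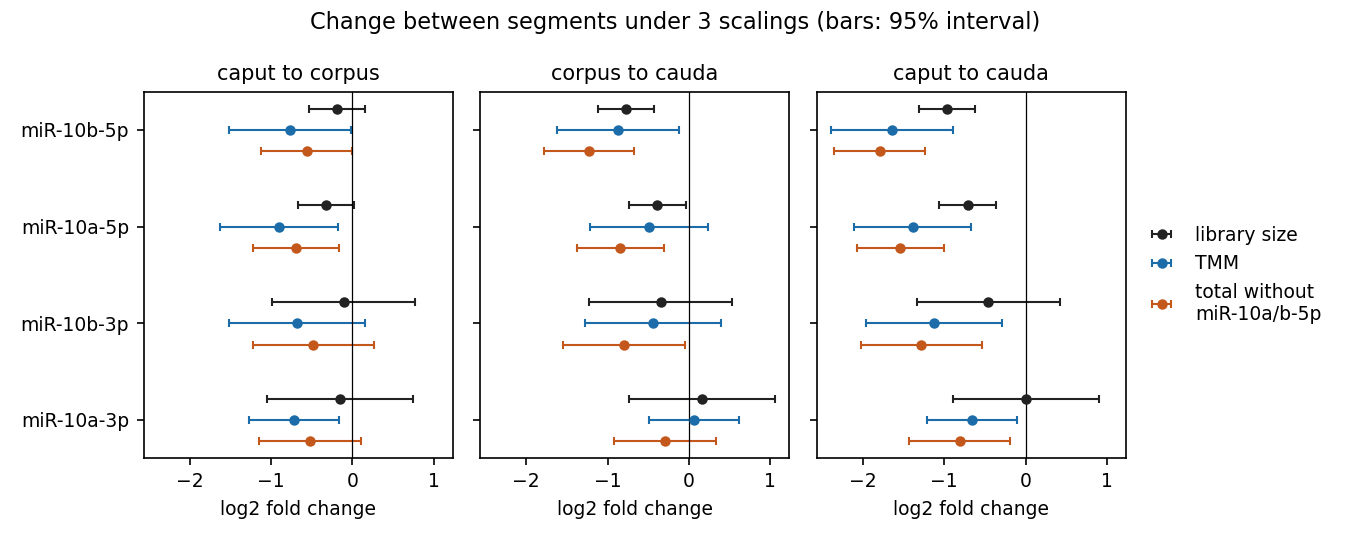
Log2 fold change (x axis; a negative value is lower in the segment named second) of the 4 arms in the 3 comparisons, with its 95% interval from limma, for 3 scalings of the libraries. In the caput to cauda panel the 5p arms lie below 0 with every scaling, whereas miR-10a-3p is at 0.01 with the library size, -0.66 with TMM and -0.81 with the total without the 5p pair.

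The proportion of the 2 paralogues does not depend on any scaling. Reads of miR-10b-5p per read of miR-10a-5p were 1.54, 1.56 and 1.43 in the caput libraries, 1.55, 1.60 and 1.83 in those of the corpus and 1.21, 1.22 and 1.37 in those of the cauda. miR-10b-5p was therefore in excess in 9 of 9 libraries, and by least in the cauda, whose 3 ratios were all below those of the other 6. The log2 ratio was 0.59 ± 0.07 in the caput libraries, 0.73 ± 0.13 in those of the corpus and 0.34 ± 0.09 in those of the cauda (SD, n = 3). The 3 segments differed in an exact permutation test over all assignments of the libraries to 3 groups of 3 (p = 0.00714, Benjamini-Hochberg adjusted over the 5p and 3p ratios 0.0143, smallest possible p 0.00357). The caput and corpus values overlapped, and 3 libraries against 3 cannot give an exact two-sided p below 0.1, so no pair of segments was tested alone. How many mismatches the counting allowed is not given in the sources used here, and a read with an error at base 12 could have been counted for the other paralogue.

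The 3p arms gave no such order. Reads of miR-10b-3p per read of miR-10a-3p were 0.653, 1.49 and 0.657 in the caput libraries, 0.822, 1.01 and 0.844 in those of the corpus and 0.721, 0.723 and 0.456 in those of the cauda. miR-10a-3p had more reads in 7 of 9 libraries, the reverse of the 5p arms. The exact permutation test over the 3 segments gave p = 0.4. The mean log2 ratio changed by -0.48 between caput and cauda, and by -0.08 without caput 2. Without that library, the exact permutation test over the 3 segments gave p = 0.111. The caput to cauda change was not tested alone.

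**Figure D4:**
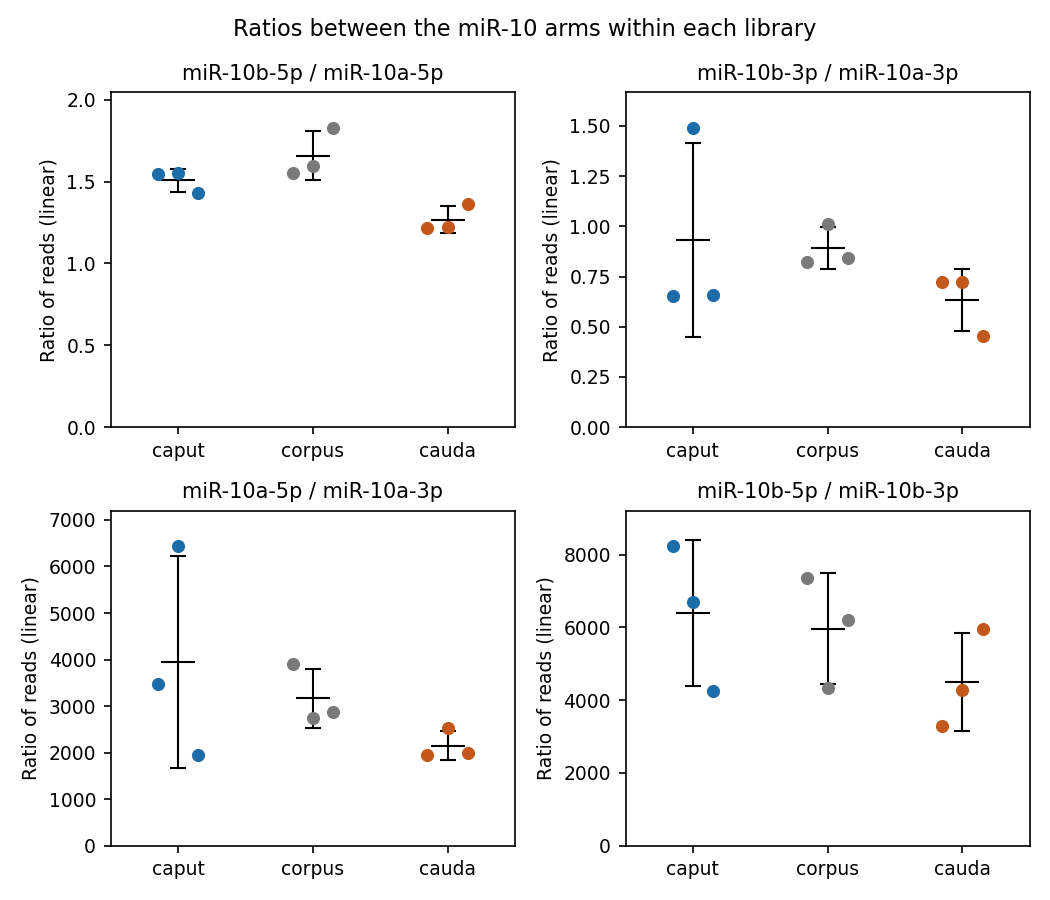
Ratios of reads within a library (linear axes from 0), 1 point per library, with the mean (horizontal mark) and SD (bar, n = 3). The miR-10b-5p to miR-10a-5p ratio was 1.21 to 1.37 in the cauda and 1.43 to 1.83 elsewhere, while the 3p paralogue ratio and both 5p to 3p ratios overlapped between segments.

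Both precursors were strongly biased to the 5p arm. There were 3481, 6431 and 1953 reads of miR-10a-5p per read of miR-10a-3p in the caput libraries, 3901, 2744 and 2869 in those of the corpus and 1945, 2523 and 1990 in those of the cauda. For miR-10b the ratio was 8229, 6712 and 4246 in the caput libraries, 7361, 4333 and 6216 in those of the corpus and 3278, 4271 and 5959 in those of the cauda. Among the 64 precursors whose arms each averaged 10 CPM or more, these were the 2 with the highest 5p to 3p ratio, at a mean log2 ratio of 12.38 for miR-10b and 11.47 for miR-10a. The next was miR-21a at 7.98, then miR-99b, a member of the miR-10 family, at 7.68. The median precursor was at 0.41. By the size of the bias towards either arm, miR-10b ranked 2 and miR-10a ranked 3 of the 64. Precursors with an arm below 10 CPM, an arm not in the table or differently named arms were not ranked. Some of those may be as biased as miR-10a and miR-10b.

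Neither arm ratio passed the test between any segments. From the caput to the cauda the log2 ratio changed by -0.72 for miR-10a (SE 0.42, 95% interval -1.62 to 0.18, limma adjusted p = 0.221) and by -0.50 for miR-10b (SE 0.38, -1.32 to 0.32, limma adjusted p = 0.350). That of miR-10a was -0.29 without caput 2 and -1.14 without caput 3, and that of miR-10b was -0.30 without caput 1, -0.30 without cauda 1 and -0.77 without caput 3. The changes were -0.17 and -0.08 from the caput to the corpus and -0.55 and -0.42 from the corpus to the cauda. Thus 0 of 2 precursors had an adjusted p under 0.05 in limma in each comparison. The background over the 64 precursors was 1.56% from the caput to the corpus, 6.25% from the corpus to the cauda and 15.6% from the caput to the cauda. A 2-fold change of either caput to cauda ratio lies within its interval.

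The other miRNAs of the Hox clusters are miR-196a and miR-196b, which lie further towards the posterior genes of the arrays, and miR-615. Of 7 listed arms, 3 were in the table, and 2 of these 3 rose in each comparison, against 19.3% of all tested miRNAs from the caput to the corpus, 14.0% from the corpus to the cauda and 40.4% from the caput to the cauda. miR-196a-5p was at 5.35 ± 2.58 CPM in the caput libraries, 82.4 ± 21.1 in those of the corpus and 328 ± 151 in those of the cauda, a caput to cauda log2 fold change of 5.66 (SE 0.50, limma adjusted p = 3.6e-07). miR-196b-5p was at 7.09 ± 3.96, 93.9 ± 9.48 and 1046 ± 334 CPM, a log2 fold change of 7.10 (SE 0.47, limma adjusted p = 1.2e-08). miR-615-3p was at 15.7, 32.7 and 23.5 CPM in the 3 segments and did not pass (0.52, limma adjusted p = 0.336). Their median was 5.66 beside 0.81 for all tested miRNAs. The miR-196 arms and the miR-10 5p arms thus moved in opposite directions, which held with TMM, where miR-196a-5p changed by 5.07 and miR-196b-5p by 6.50.

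The miR-10 family also includes miR-99, miR-100 and miR-125, whose arms resemble miR-10 but have other seeds. The 5p arms are shown because miR-99 and miR-100 carry the central bases at which miR-10a-5p and miR-10b-5p differ. With both, miR-125 shares runs of 5 bases. Among these, ACCCU is in the seed of miR-10 and after the seed of miR-125. CCCUG lies within both seeds, but not at the same bases.
miR-99a-5p: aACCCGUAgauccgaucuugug
miR-100-5p: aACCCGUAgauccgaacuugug
miR-99b-5p: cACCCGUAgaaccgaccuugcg
miR-125a-5p: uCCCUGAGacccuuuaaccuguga
miR-125b-5p: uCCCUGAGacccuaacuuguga

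The longest run that miR-10a-5p shared with miR-99a-5p was GUAGAUCCGA (10 bases), and with miR-100-5p it was GUAGAUCCGAA (11 bases), whereas miR-10b-5p shared GUAGAACCGA (10 bases) with miR-99b-5p. Of 11 listed arms 9 were in the table. None passed the test from the caput to the corpus with the library size (background for a fall 3.74%). With TMM, miR-125a-5p (-0.91, limma adjusted p = 0.0343) and miR-125b-1-3p (-0.95, limma adjusted p = 0.0449) did. On that scaling, however, 68 of all 321 tested miRNAs fell. From the corpus to the cauda miR-99b-5p fell by 0.91 (limma adjusted p = 0.0356) and miR-125a-5p by 1.23 (limma adjusted p = 0.0187), while 7 did not pass, so that 2 of 9 fell against 6.14% of all tested miRNAs. With TMM the change of miR-99b-5p in that step missed the threshold (limma adjusted p = 0.0654).

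Over the whole passage, caput to cauda, 2 of the 9 fell, against 10.9% of all tested miRNAs, 1 rose and 6 did not pass. miR-99b-5p fell from 6972 ± 1102 to 3309 ± 402 CPM, a log2 fold change of -1.07 (SE 0.29, limma adjusted p = 0.00650). miR-125a-5p fell from 3711 ± 513 to 1321 ± 586 CPM, by -1.57 (SE 0.34, limma adjusted p = 0.00148). These 2 are encoded close together, at chr17:17830194-17830215 and chr17:17830817-17830840. miR-99a-5p rose from 816 ± 86.3 to 1451 ± 234 CPM (0.82, limma adjusted p = 0.0428), but did not pass with TMM (0.15, limma adjusted p = 0.714). miR-100-5p (-0.34) and miR-125b-5p (-0.20) did not pass, although miR-125b-5p did with TMM (-0.88, limma adjusted p = 0.00946). With the total without the 5p pair, miR-100-5p (-1.17, limma adjusted p = 0.0243), miR-125b-5p (-1.03, 0.00693) and miR-99b-3p (-0.89, 0.0490) passed. On that scaling 95 of the 349 tested miRNAs fell. With miR-143-3p left out too, none of them passed (limma adjusted p = 0.284, 0.204 and 0.564). With the library size scaling, the median over the 9 family arms was -0.09, beside 0.81 for all tested miRNAs.

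**Figure D5:**
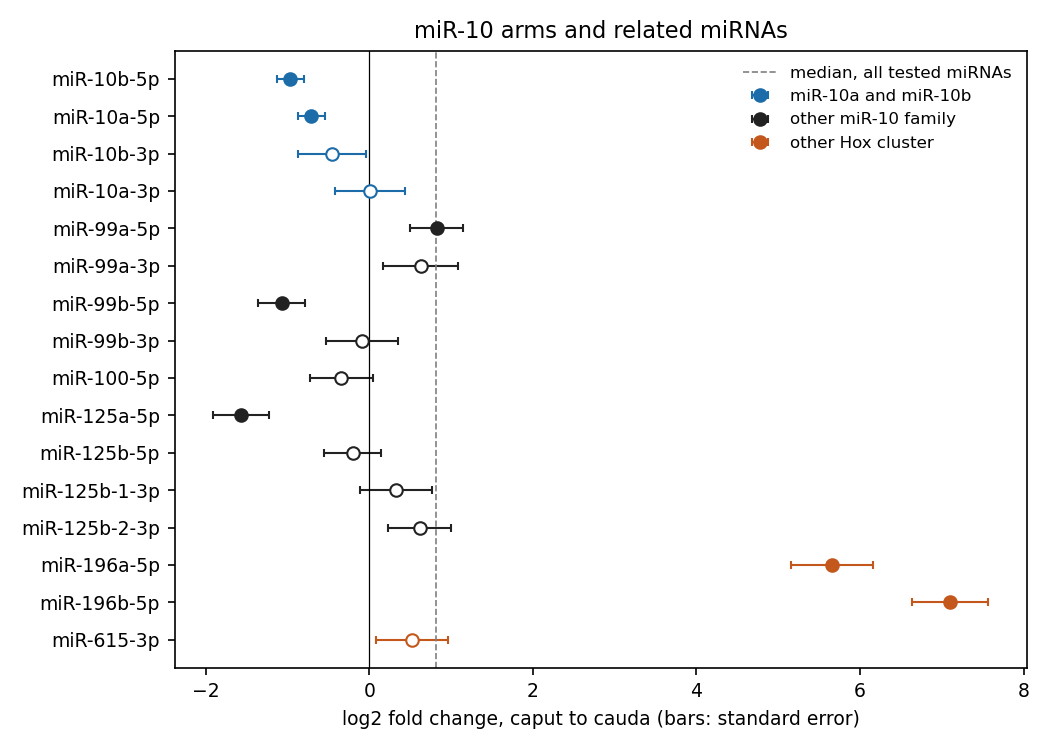
Caput to cauda log2 fold change (x axis) with its standard error (bar) of the 4 miR-10 arms, 9 other arms of the miR-10 family and 3 other Hox cluster arms, filled where limma's adjusted p was under 0.05. The dashed line is the median of all 349 tested miRNAs, 0.81; with the library size scaling shown, miR-10b-5p (-0.96), miR-10a-5p (-0.71), miR-99b-5p (-1.07) and miR-125a-5p (-1.57) fell, and miR-196a-5p (5.66) and miR-196b-5p (7.10) rose.

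The 5p arms followed each other over the 9 libraries, with Pearson's r of 0.94 on log2(CPM + 1), or 0.98 with TMM. Each 5p arm and its own 3p arm gave r of -0.32 (miR-10a) and 0.45 (miR-10b), and 0.68 and 0.85 with TMM. These correlations are descriptions over 9 points that share 3 segments and a common total, which the 5p arms largely fill. The 5 miRNAs most like miR-10a-5p were miR-99b-5p (0.926), miR-146b-5p (0.918), miR-183-5p (0.874), miR-204-5p (0.855) and miR-211-5p (0.819). For miR-10b-5p they were miR-204-5p (0.936), miR-375-3p (0.914), miR-99b-5p (0.911), miR-125a-5p (0.854) and miR-211-5p (0.848). With TMM, 3 of the 5 stayed among the closest to miR-10a-5p and 2 of the 5 to miR-10b-5p, where miR-204-5p and miR-375-3p dropped out, and miR-99b-5p was the first for both 5p arms.

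With the library size scaling, likeness in pattern was not likeness in size. miR-204-5p went from 11488 CPM in the caput libraries to 5777 in those of the corpus and 366 in those of the cauda, a caput to cauda log2 fold change of -5.11 (limma adjusted p = 1.0e-07), and miR-375-3p from 1341 to 857 and 80.1 CPM (-4.19, limma adjusted p = 2.1e-06). The 5p arms of miR-10 had the same order of segments over a much smaller range. miR-10a-3p was most like miR-181a-5p (0.924), let-7c-5p (0.893), miR-340-5p (0.839), let-7f-2-3p (0.801) and miR-29c-3p (0.771). miR-10b-3p was most like miR-6240 (0.809), miR-714 (0.779), miR-183-3p (0.745), let-7b-5p (0.723) and miR-5126 (0.672), and with TMM none of these 5 stayed among its closest.

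Muscle and red blood cell miRNAs were highest in the cauda, where the 5p arms were lowest. The share of all tested miRNAs that rose between caput and cauda was 40.4%, and the counts of each list stand against it. The summed level of 4 of 4 smooth muscle miRNAs was 50115 to 88995 CPM in the caput libraries, 88423 to 121412 in those of the corpus and 291676 to 354786 in those of the cauda, and all 4 rose from the caput to the cauda. Striated muscle miRNAs (3 of 4 in the table, without miR-206-3p) summed to 52.5 to 184 CPM in the caput libraries, 113 to 157 in those of the corpus and 1249 to 3706 in those of the cauda, and 3 of 3 rose. Red blood cell miRNAs (4 of 5) summed to 223 to 848, 389 to 1104 and 3019 to 4348 CPM, and 4 of 4 rose. Leukocyte miRNAs (5 of 5) summed to 231 to 530, 515 to 1149 and 392 to 1601 CPM, and 3 of 5 rose. Epithelial miRNAs of the miR-200 family (5 of 5) were present throughout, at 20990 to 31796, 71973 to 84209 and 44552 to 61007 CPM, and 1 of 5 rose. The part of these miRNAs in the lower CPM of miR-10a-5p and miR-10b-5p in the cauda was not tested beyond the scaling without miR-143-3p given above.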

How the data were processed

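The authors sequenced small RNA as single-end Illumina reads, screened the reads against contaminants with cutadapt and bowtie, and counted known mature miRNAs with miRDeep2. The submitters' processing notes name CASAVA 1.8.2, Bowtie 1.1.1 and limma. The genome build and the miRBase release are not given in the sources used here. The values the authors deposited are CPM, scaled to library size. A total that each library's values imply, since all were whole multiples of 1 read within 0.02 reads, gave the depth.

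The 9 libraries were grouped by the labels. The 3 segments were compared with limma 3.58 (R 4.3), using a trended eBayes after lmFit, on log2(CPM + 1) of all 9 libraries. P-values were adjusted by Benjamini-Hochberg over every miRNA that averaged 10 CPM or more in either segment. The authors' fold of at least 2 and adjusted p under 0.05 were the rule for a call. Arm ratios used limma on log2 ratios with 0.5 CPM added to each arm. The p-values measure the spread between pools. Paralogue ratios were tested by exact permutation. The scripts were tested on simulated data. Alternatives were other scalings (TMM, median of ratios, totals without abundant miRNAs), pseudocounts, filters, limma-voom, a replicate block and leaving out each library. Figures were drawn with matplotlib 3.10 in Python 3.11.

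The text names the 4 arms, the 5 miRNAs most correlated with each, the 10 most abundant miRNAs, the other Hox cluster and miR-10 family miRNAs, and lists of cell type miRNAs. Arms next in line by arm ratio were named after their values were seen. The members and lists were chosen with earlier results of these data known.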

Additional observations from a re-analysis of the deposited data

How the results depend on the processing

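Of 424 recomputed values, 381 were scored the same as with the main settings. For tested changes and ratios this meant the same direction and side of the threshold. Counts of arms and the summed share have no adjusted p and were scored without it. The caput to cauda falls of miR-10b-5p (log2 fold change -1.79 to -0.84) and miR-10a-5p (-1.54 to -0.61) passed limma's adjusted p of 0.05 in 21 of 21 alternatives, and the corpus to cauda fall of miR-10b-5p (-1.23 to -0.63) in 18 of 21. It missed the threshold with TMM (adjusted p = 0.0755), limma-voom with TMM (0.0851) and the total without the 5p pair and miR-143-3p (0.0754); the cause was not tested.

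The number of arms with both an adjusted p under 0.05 and a fold of at least 2 was 0 in each comparison. From the corpus to the cauda it was 1 by adjusted p alone and 1 with the total without the 5p pair. From the caput to the cauda it was 2 by adjusted p alone. It was 3 with TMM, median-of-ratios scaling, limma-voom with TMM or the total without the 5p pair, and 1 when miR-143-3p was left out too. By adjusted p, more of the 349 tested miRNAs also fell: 83 with TMM and 95 without the pair, against 38. Leaving out caput 3 or cauda 3 gave 1, any other library 0. The removal of miR-143-3p and limma-voom with TMM were chosen after seeing the data.

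The direction of miR-10a-3p changed with the setting in all 3 comparisons, and that of miR-10b-3p and of the arm ratios from the caput to the corpus alone. From the caput to the cauda miR-10a-3p changed by 0.01, but by -0.66 with TMM, -0.70 with median-of-ratios scaling, -0.81 with the total without the 5p pair, -0.14 when miR-143-3p was left out too, -0.0021 with a pseudocount of 10 CPM and -0.67 with limma-voom and TMM, and between -0.32 and 0.31 with 1 library left out. From the corpus to the cauda it was -0.037 with median-of-ratios scaling and -0.29 with the total without the 5p pair. From the caput to the corpus, leaving out 1 library gave -0.48 to 0.15 for miR-10a-3p, -0.31 to 0.052 for miR-10b-3p, -0.59 to 0.26 for the arm ratio of miR-10a and -0.35 to 0.13 for that of miR-10b. From the caput to the cauda it gave -1.14 to -0.29 and -0.77 to -0.30 for these ratios.

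The 5p paralogue ratio kept its exact permutation p under 0.05 without each library (0.00357 to 0.0321). Same-numbered libraries deviated together with r of -0.21 to 0.41, over 0.1 in 6 of 9 pairs. The labels do not say whether such libraries share animals, and the main tests did not pair them. With a replicate block the number of arms called stayed 0 in each comparison. Permuting the 5p paralogue ratio within the block gave an exact p of 0.0278, the smallest possible. The planned edgeR and DESeq2 alternatives were not run. The 3p arms rest on 81 to 899 reads a library. The exact Poisson intervals of miR-10a-3p in the 3 caput libraries were 66.5 to 76.5, 39.0 to 48.1 and 99.5 to 114 CPM. With the library size they did not overlap. With TMM miR-10a-3p was at 94.8, 90.9 and 91.4 in these libraries and miR-10b-3p at 61.9, 135 and 60.1. The spread of the 3p arms in the caput thus depended on the scaling, and its cause was not tested.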
